A study of Mus musculus with 22 samples.

Results

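ECs sorted from HDM-treated lungs of mice labelled AhR-/- were compared with ECs of HDM-treated WT mice across all protein-coding genes. The groups were taken from the sample labels, with 4 RNA sequencing libraries labelled AhR-/- and 4 labelled WT, 8 of the 22 libraries of the series. The other libraries are 4 of HDM-treated mice labelled CYP1B1-/-, which entered the same fit, and 10 of untreated mice of the same genotypes, of which 4 WT and 3 labelled AhR-/- served for comparison. All mice were C57BL/6 or backcrossed to C57BL/6, and HDM is an extract of the house dust mite Dermatophagoides farinae that was given into the nose, first to sensitize and then to challenge the mice. The AhR deletion is carried by every cell of the mouse, not by ECs alone, and the methods of the study name mice of both sexes with only a lower limit of age, matched for age and sex within experiments. ECs were sorted as live CD45-EpCAM+ single cells, and the study also describes them as CD31-. Of the 21793 protein-coding genes in the count table, 14161 had enough counts to be tested.

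AhR is a ligand-activated transcription factor that resides in the cytosol with the chaperone HSP90 until a ligand, such as a dioxin or a tryptophan metabolite, releases it to the nucleus. There it pairs with ARNT and binds DNA at response elements with the core GCGTG, which raises transcription of CYP1 enzymes, of the feedback repressor AHRR and of the ADP-ribosyltransferase TIPARP. In lung, ECs form the barrier that meets inhaled allergens, and they comprise the alveolar type 1 cells of gas exchange, the surfactant-producing alveolar type 2 cells, and the club, ciliated, goblet and neuroendocrine cells of the airway.

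The 8 libraries differed in depth and in content. Total counts ranged from 9654825 to 17878442, but the predicted gene Gm10800 alone took between 0.00819% and 71.9% of them, both extremes in libraries labelled AhR-/-. After TMM normalization, 3 counts corresponded to between 0.0742 and 1.09 CPM, counts scaled to a common library size of 1e6. Replicates 3 and 4 labelled AhR-/- stood apart on the first principal component, at -130.3 and -111.0 against -32.2 and -27.0 for replicates 1 and 2 and -6.03 to 92.5 for WT. These same 2 libraries held Y-linked transcripts, at a summed 138 and 143 CPM against at most 0.227 CPM in the other 6. The sex of single mice is not given in the labels. Most groups of genes are therefore also given below without these 2 libraries, and a DEG is called kept in such a fit where it had an unadjusted p under 0.05 in the same direction.

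Leukocyte markers differed between the 2 groups, although CD45+ cells were sorted out. The mean log2 CPM of 10 leukocyte markers was 7.96, 7.28, 8.43 and 8.04 in WT and 6.18, 6.33, 4.00 and 3.67 in the libraries labelled AhR-/-, and the summed level of the list ran from 1736 to 3954 CPM and from 168 to 872 CPM. It also varied within another label, from 296 to 3932 CPM in the libraries labelled CYP1B1-/- after HDM. All 10 markers were lower in every library labelled AhR-/- than in every WT library, 6 of them past the threshold of the comparison given below, and none was at 0 in all 8. Of all genes tested, 15.3% lay below WT in this way and 12.9% passed as lower. Ptprc, which encodes CD45 itself, was at 275, 187, 427 and 305 CPM in WT and at 111, 73.8, 22.2 and 11.1 CPM in the libraries labelled AhR-/-, a log2 fold change of -2.44 (SE 0.83, edgeR adjusted p = 0.0519). The other sorting marker, Epcam, was at 170.4, 95.6, 123 and 188 CPM in WT and at 111, 141, 54.6 and 64.3 CPM in the libraries labelled AhR-/-, a log2 fold change of -0.64 (SE 0.35, edgeR adjusted p = 0.202), and its groups overlapped. In such bulk samples, fewer cells of a type and less RNA per cell cannot be told apart. The fits were therefore repeated with the leukocyte marker level as a covariate. This level itself separated the groups, so that the covariate takes up part of their difference, and fewer DEGs pass for that reason too.

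By edgeR's quasi-likelihood test, 3129 of the 14161 genes, or 22.1%, were differentially expressed (DEGs) at an adjusted p of at most 0.05, 1305 higher (9.22%) and 1824 lower (12.9%) in the libraries labelled AhR-/-. The median log2 fold change was 1.35 among the higher and -1.64 among the lower DEGs, and close to 0 over all genes tested. In 3533 genes (24.9%) the libraries of both groups did not overlap, with all 4 labelled AhR-/- above WT in 1364 (9.63%) and below WT in 2169 (15.3%). The lowest adjusted p that any gene reached was 0.0261, so the list stood near the threshold as a whole. Without the 2 libraries with Y-linked reads 0 genes passed in edgeR's test (3126 at an unadjusted p under 0.05), and 0 passed with the leukocyte covariate (875). All 3129 DEGs kept their direction without those 2 libraries and with each of the 8 libraries left out in turn, and 2284 had an unadjusted p under 0.05 without those 2 libraries. The DEGs were picked in a fit that shares most of its libraries with these, so that a kept direction is no separate support. With the leukocyte covariate, 3038 kept their direction, all 1305 of the higher and 1733 of the lower DEGs, and 584 had an unadjusted p under 0.05. Leaving out replicate 1, 3 or 4 labelled AhR-/-, or WT replicate 3 or 4, also left 0 DEGs in edgeR's test (with 4148 to 4987 genes below 0.05 before adjustment), and 885 genes passed without WT replicate 1. Without replicate 2 labelled AhR-/- 4137 genes passed, and without WT replicate 2 3366. Where a gene is called a DEG below, this holds for the fit of all libraries.

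Ahr itself, on chromosome 12 (chr12:35497974-35535038, GRCm38, minus strand), was not lower in the libraries labelled AhR-/-. It was counted at 12.7, 12.0, 12.0 and 8.04 CPM in WT and at 17.3, 9.52, 20.4 and 17.9 CPM in the libraries labelled AhR-/-, a log2 fold change of 0.53 (SE 0.29, edgeR adjusted p = 0.197). At steady state it was at 9.69, 12.1, 16.6 and 16.1 CPM in WT and at 24.7, 21.9 and 27.4 CPM in the 3 libraries labelled AhR-/-, which all lay above WT (log2 fold change 0.85, SE 0.21, edgeR unadjusted p = 0.00163, adjusted p = 1). The level of the targeted gene thus goes against the label AhR-/- at steady state and overlaps WT after HDM. A count per gene also takes in transcripts that lack some exons, and the part of Ahr that is deleted is not named in the sources used here, so that the level alone does not settle the genotype. Of the 20 genes listed for AhR, its partners and its targets, 16 were tested and 1 was differentially expressed (6.25%), against 22.1% of all genes, with a list median close to 0. This was Nqo1, a quinone reductase that AhR and NRF2 both regulate, at 0.567, 0.454, 0.714 and 0.643 CPM in WT and at 2.50, 2.62, 3.64 and 1.19 CPM in the libraries labelled AhR-/-. All 4 libraries labelled AhR-/- lay above WT, with a log2 fold change of 2.00 (SE 0.51, edgeR adjusted p = 0.0272). In WT replicate 2 the level of Nqo1 was under the 0.681 CPM that 3 counts stood for in it. Tiparp had a log2 fold change of 1.01 (SE 0.38, edgeR adjusted p = 0.0718), at 29.7, 38.1, 32.8 and 39.4 CPM in WT and at 69.2, 24.3, 86.6 and 102 CPM in the libraries labelled AhR-/-, and 1 library labelled AhR-/- was below all of WT. Ahrr and Cyp1b1 stayed at or under 2.04 CPM in every one of the 8 libraries, with log2 fold changes of -1.07 (SE 0.82, edgeR adjusted p = 0.365) and -0.34 (SE 0.52, edgeR adjusted p = 0.674). In the 4 libraries labelled CYP1B1-/- of the same fit, Cyp1b1 was at 8.26, 11.2, 3.33 and 3.33 CPM, above every WT library. At steady state it was at 5.12, 7.60 and 8.05 CPM in the 3 libraries labelled CYP1B1-/- and at 1.81, 2.81, 1.18 and 0.843 CPM in WT, so that the level of the targeted gene goes against this label in both states. The deleted part of Cyp1b1 is not named either. Cyp1a1 and Cyp1a2 had too few counts to be tested. The remaining members, among them the ARNT and HSP90 genes, had log2 fold changes between -1.70 and 1.13 and did not pass.

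Among the DEGs without overlap between the groups, those with the lowest p-values included phosphatases, a zinc finger protein and an actin-binding protein. Cdc14b, a dual-specificity phosphatase, was at 4.96, 5.90, 6.32 and 5.84 CPM in WT and at 17.4, 12.7, 18.2 and 18.03 CPM in the libraries labelled AhR-/-, a log2 fold change of 1.53 (SE 0.23, edgeR adjusted p = 0.0261). Zfp292, a zinc finger protein, was at 11.1, 11.6, 8.36 and 8.62 CPM in WT and at 34.6, 19.5, 30.6 and 27.6 CPM in the libraries labelled AhR-/-, a log2 fold change of 1.50 (SE 0.24, edgeR adjusted p = 0.0261). Wdfy1, an endosomal adaptor, was at 7.88, 8.63, 4.38 and 5.46 CPM in WT and at 28.8, 32.7, 15.6 and 25.6 CPM in the libraries labelled AhR-/-, a log2 fold change of 1.99 (SE 0.32, edgeR adjusted p = 0.0261). Lack of overlap between the groups was a condition for naming these 3 genes and the lower DEGs that follow. Among the lower DEGs, Acp1, a low molecular weight tyrosine phosphatase, was at 9.97, 5.22, 9.69 and 8.36 CPM in WT and at 2.15, 1.41, 1.82 and 2.12 CPM in the libraries labelled AhR-/-, a log2 fold change of -2.15 (SE 0.26, edgeR adjusted p = 0.0261). Lfng, a fringe glycosyltransferase that modifies Notch receptors, was at 6.32, 3.86, 7.65 and 6.80 CPM in WT and at 0.792, 0.767, 0.364 and 0.795 CPM in the libraries labelled AhR-/-, a log2 fold change of -3.07 (SE 0.48, edgeR adjusted p = 0.0261). Dbn1, the actin-binding protein drebrin, was at 8.58, 6.81, 8.97 and 9.16 CPM in WT and at 0.742, 0.511, 0.364 and 0 CPM in the libraries labelled AhR-/-, a log2 fold change of -4.08 (SE 0.67, edgeR adjusted p = 0.0261). The levels of Lfng and Dbn1 in replicate 3 labelled AhR-/- were under the 1.09 CPM that 3 counts stood for in it. Without the libraries with Y-linked reads the log2 fold changes of these 6 genes were 1.41, 1.47 and 2.24 for the higher and -2.21, -2.98 and -3.68 for the lower genes. With the leukocyte covariate, they were 1.17, 1.34 and 1.84, and -2.21, -1.84 and -2.34.

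The promoters of these genes, and of Nqo1 as the one differentially expressed member of the AhR battery, are shown because AhR acts through the GCGTG core. RefSeq windows (GRCm38.p6) run from 250 bases before to 50 bases after the start of transcription and are written along the strand of the gene. Capitals mark GCGTG or its reverse complement CACGC, which can overlap each other where they meet. Wdfy1 was not matched.
Cdc14b, chr13:64274939-64275238, minus strand: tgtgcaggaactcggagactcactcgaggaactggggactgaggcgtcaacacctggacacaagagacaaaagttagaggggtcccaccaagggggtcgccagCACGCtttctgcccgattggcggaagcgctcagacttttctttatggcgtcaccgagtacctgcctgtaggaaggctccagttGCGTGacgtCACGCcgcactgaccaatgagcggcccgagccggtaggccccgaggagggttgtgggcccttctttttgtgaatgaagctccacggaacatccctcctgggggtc
Zfp292, chr4:34882899-34883198, minus strand: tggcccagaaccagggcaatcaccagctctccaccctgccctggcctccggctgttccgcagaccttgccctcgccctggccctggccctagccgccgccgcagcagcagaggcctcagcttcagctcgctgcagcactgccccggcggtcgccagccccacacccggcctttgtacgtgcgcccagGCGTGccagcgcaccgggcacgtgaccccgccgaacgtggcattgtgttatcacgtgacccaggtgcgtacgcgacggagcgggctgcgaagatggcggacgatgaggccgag
Acp1, chr12:30911563-30911862, minus strand: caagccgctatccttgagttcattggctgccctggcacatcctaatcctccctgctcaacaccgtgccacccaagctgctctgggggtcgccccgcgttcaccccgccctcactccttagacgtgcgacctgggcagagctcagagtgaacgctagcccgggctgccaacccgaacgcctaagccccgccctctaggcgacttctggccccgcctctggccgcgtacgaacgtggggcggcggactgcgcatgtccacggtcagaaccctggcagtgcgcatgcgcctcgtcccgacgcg
Lfng, chr5:140607091-140607390, plus strand: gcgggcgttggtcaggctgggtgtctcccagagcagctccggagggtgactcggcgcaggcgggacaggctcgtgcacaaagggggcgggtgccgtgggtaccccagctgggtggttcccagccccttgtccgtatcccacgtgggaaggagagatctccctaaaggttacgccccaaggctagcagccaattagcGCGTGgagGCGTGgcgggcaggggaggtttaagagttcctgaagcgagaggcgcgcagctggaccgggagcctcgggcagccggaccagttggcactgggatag
Dbn1, chr13:55488027-55488326, minus strand: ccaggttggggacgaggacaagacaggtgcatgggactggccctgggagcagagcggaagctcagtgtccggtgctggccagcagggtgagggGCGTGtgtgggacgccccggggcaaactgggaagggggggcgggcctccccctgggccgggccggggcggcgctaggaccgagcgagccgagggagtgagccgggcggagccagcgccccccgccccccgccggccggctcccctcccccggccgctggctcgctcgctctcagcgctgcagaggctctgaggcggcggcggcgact
Nqo1, chr8:107403156-107403455, minus strand: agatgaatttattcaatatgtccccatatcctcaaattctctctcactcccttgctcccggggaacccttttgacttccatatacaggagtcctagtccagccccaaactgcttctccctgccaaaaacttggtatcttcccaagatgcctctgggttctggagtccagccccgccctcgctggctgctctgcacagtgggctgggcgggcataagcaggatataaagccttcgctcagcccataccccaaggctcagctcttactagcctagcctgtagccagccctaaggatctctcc
Cdc14b held 3 matches, Lfng 2, and Zfp292 and Dbn1 1 each, whereas none lay in the windows of Acp1 and Nqo1. A match was a frequent feature, present in 49.1% of the 11060 windows matched to tested genes, in 52.3% of the 996 windows of higher DEGs and in 49.4% of the 1470 windows of lower DEGs. It was in 7 of the 11 windows matched to the AhR battery (63.6%) and in 13 of the 17 matched to the clock genes described further on (76.5%).

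Enzymes that conjugate and oxidize foreign compounds were among the higher DEGs. Of 21 tested P450 and conjugation enzymes, 7 rose and 1 fell, with a median log2 fold change of 1.52. Gsta3, a glutathione S-transferase outside that list, had the largest increase among the DEGs without overlap that reached a mean of 20 CPM, at 3.88, 7.95, 2.96 and 1.34 CPM in WT and at 50.3, 17.3, 74.6 and 50.8 CPM in the libraries labelled AhR-/-, a log2 fold change of 3.65 (SE 0.69, edgeR adjusted p = 0.0261). Gstm2, a mu class transferase, was at 4.39, 6.13, 2.85 and 2.20 CPM in WT and at 24.6, 11.1, 31.6 and 28.5 CPM in the libraries labelled AhR-/-, a log2 fold change of 2.65 (SE 0.52, edgeR adjusted p = 0.0261). Gstm1, a related gene of the same class with which reads may be shared where the sequences are alike, rose by 2.10 on the log2 scale (edgeR adjusted p = 0.0261). In Gsta3 and Gstm2 replicate 2 was the lowest of the libraries labelled AhR-/- and still above all of WT. Gsto1, of the omega class, was at 69.2, 91.2, 55.7 and 55.8 CPM in WT and at 166, 194, 149.9 and 112 CPM in the libraries labelled AhR-/-, a log2 fold change of 1.20 (SE 0.27, edgeR adjusted p = 0.0261). Aldh1a1, an aldehyde dehydrogenase that makes retinoic acid, was at 12.0, 30.9, 9.99 and 8.04 CPM in WT and at 71.3, 86.0, 86.9 and 72.9 CPM in the libraries labelled AhR-/-, a log2 fold change of 2.40 (SE 0.55, edgeR adjusted p = 0.0261). Every library labelled AhR-/- exceeded every WT library in all 5 of these genes. Ugt1a7c, a glucuronosyltransferase, was the member that fell (log2 fold change -1.96, SE 0.46, edgeR adjusted p = 0.0261). The list's median was 1.24 without the libraries with Y-linked reads and 0.82 with the leukocyte covariate. Of the 8 DEGs of the list, 8 and 4 respectively kept an unadjusted p under 0.05. In the list for NRF2, the factor of the oxidant response, 3 of 26 rose, which are Gclm (glutathione synthesis), Gstm1 and Nqo1, and 2 fell, which are G6pdx (NADPH supply) and Slc7a11 (cystine import). These counts were near the 9.22% of all genes that rose and below the 12.9% that fell. The NRF2 median of 0.47 was 0.68 without the libraries with Y-linked reads (5 of 5 DEGs kept) and 0.37 with the leukocyte covariate (3 kept).

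**Figure D1:**
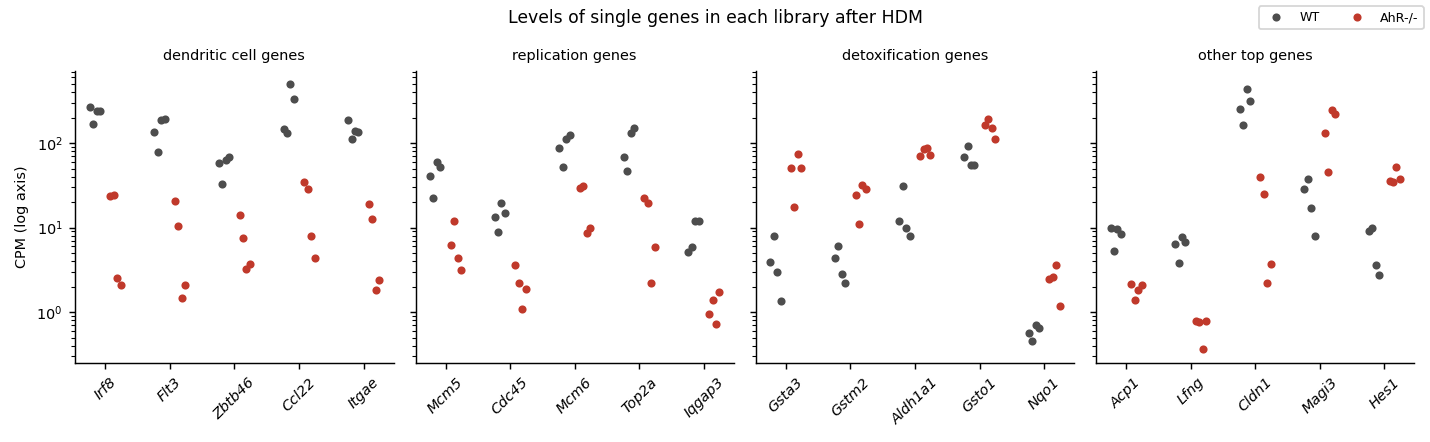
CPM (log axis) of 20 genes in each of the 4 WT (grey) and 4 libraries labelled AhR-/- (red) after HDM, replicates 1 to 4 from left to right within a group. The 20 genes were picked from those named in the text, several of them under a rule that required no overlap between the groups. None of the 20 overlaps, where 24.9% of all genes tested did not. Irf8 fell from 228 to 13.1 CPM on average and Gsta3 rose from 4.03 to 48.2 CPM.

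Markers of epithelial cell types were shifted unequally. All 16 alveolar type 1 markers had a positive log2 fold change (median 2.03) and 4 rose, where 9.22% of all genes rose, namely Akap5, Igfbp2, Cav2 and Lmo7. Igfbp2, an insulin-like growth factor binding protein of type 1 cells, was at 119.8, 170, 77.0 and 31.9 CPM in WT and at 298, 267, 625 and 946 CPM in the libraries labelled AhR-/-, a log2 fold change of 2.42 (SE 0.78, edgeR adjusted p = 0.0435). The 2 highest values were those of replicates 3 and 4, and none of the 4 genes kept an unadjusted p under 0.05 without them. The type 1 median was 0.99 without these libraries and 0.16 with the leukocyte covariate. All 12 club cell markers were also positive (median 2.01) and 2 rose, Aldh1a1 and Cyp2f2, a P450 of club cells at 39.4, 79.5, 17.0 and 28.7 CPM in WT and at 176, 155, 118 and 94.4 CPM in the libraries labelled AhR-/- (log2 fold change 1.73, SE 0.57, edgeR adjusted p = 0.0476). The club cell median was 2.23 without the libraries with Y-linked reads (2 of 2 DEGs kept) and 1.16 with the leukocyte covariate (1 kept). Alveolar type 2 markers gave 0 of 16 DEGs and a median of 0.29, which moved from 1.06 in replicates 1 and 2 to -1.92 in replicates 3 and 4 labelled AhR-/-. Of 14 ciliated markers 0 passed, at a median of 1.01 that was 1.02 without the libraries with Y-linked reads and 0.92 with the leukocyte covariate.

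Some neuroendocrine genes were higher as well. Of 8 tested neuroendocrine and tuft cell markers 4 rose, all 4 of them without overlap between the groups, where 9.22% of all genes rose and 9.63% lay above WT in every library. Alox5ap, a tuft cell marker that leukocytes also express, did not pass the test, at 182, 87.4, 177 and 174 CPM in WT and at 71.0, 24.6, 10.9 and 6.50 CPM in the libraries labelled AhR-/- (log2 fold change -2.44, SE 0.88, edgeR adjusted p = 0.062). Its groups did not overlap, with WT above. In WT it took most of the summed level of the list, which was 124 to 204 CPM in WT and 47.1 to 141 CPM in the libraries labelled AhR-/-. The list's median of 1.70 became 1.93 without the libraries with Y-linked reads (4 of 4 DEGs kept) and 1.44 with the leukocyte covariate (2 kept). Calca, which encodes the neuropeptide CGRP, was at 5.95, 11.3, 3.16 and 3.54 CPM in WT and at 22.1, 28.0, 20.4 and 18.6 CPM in the libraries labelled AhR-/-, a log2 fold change of 1.95 (SE 0.58, edgeR adjusted p = 0.036). Resp18, a secretory granule protein, and Scg5, a secretogranin, had log2 fold changes of 2.39 (SE 0.58, edgeR adjusted p = 0.0262) and 2.12 (SE 0.68, edgeR adjusted p = 0.0428). Among the transcription factors of lung lineages, 5 of 23 rose and 0 fell (median 0.65). Nkx2-1, the master regulator of lung epithelium, was at 12.9, 20.9, 7.75 and 6.38 CPM in WT and at 63.5, 74.0, 38.9 and 40.8 CPM in the libraries labelled AhR-/-, a log2 fold change of 2.21 (SE 0.57, edgeR adjusted p = 0.0277). The forkhead factors Foxa1 and Foxa2, which act with it, and Gata6 rose by 2.02, 1.81 and 2.188 (edgeR adjusted p = 0.0342, 0.036 and 0.0261). The lineage factor median was 1.01 without the libraries with Y-linked reads (5 of 5 DEGs kept) and 0.29 with the leukocyte covariate (1 kept). Of 7 basal cell markers 2 fell and 0 rose, but 4 of the 7 had a positive log2 fold change and the median of 0.34 was 0.52 without the libraries with Y-linked reads (2 of 2 DEGs kept) and 0.83 with the leukocyte covariate (1 kept). It was -0.36 without replicate 1 labelled AhR-/-. Those that fell were Aqp3 (a glycerol and water channel), by 3.80 and Ngfr (the p75 neurotrophin receptor), by 3.57 on the log2 scale (edgeR adjusted p = 0.0261 for both).

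**Figure D2:**
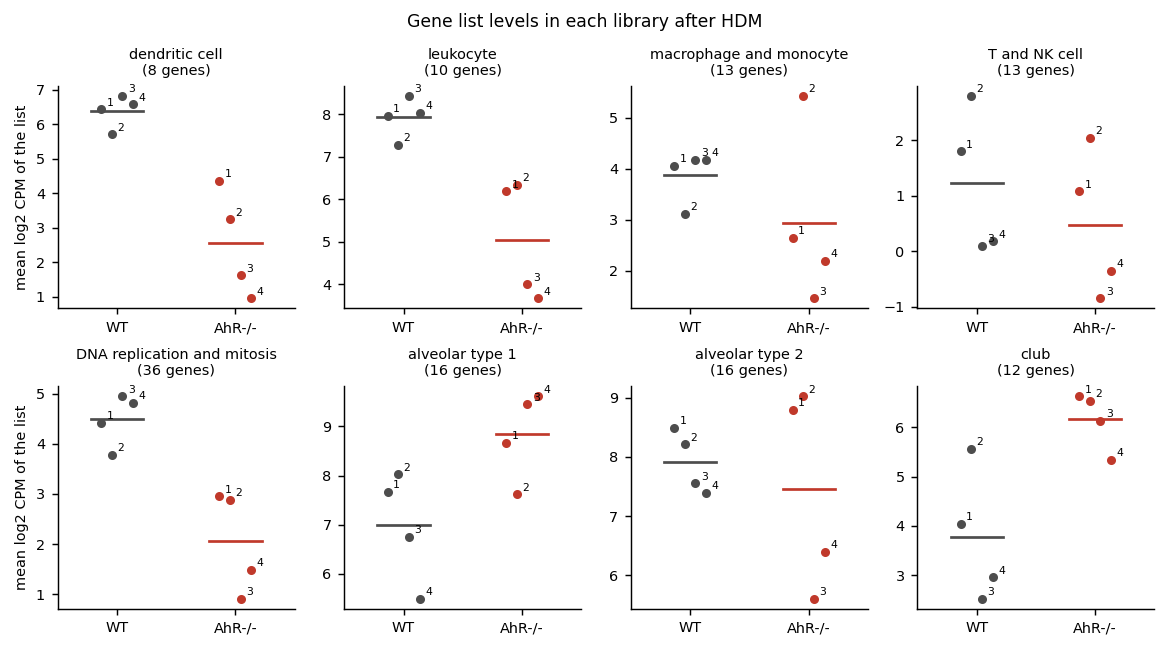
Mean log2 CPM of 8 gene lists in each library after HDM, with replicate numbers beside the points and a line at the mean of each group. Dendritic cell, leukocyte and DNA replication lists separate the groups, macrophage and T cell lists overlap, and replicates 3 and 4 labelled AhR-/- are highest for alveolar type 1 and lowest for alveolar type 2 genes.

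Genes of epithelial contacts were found among the higher DEGs. Of 31 tight junction and polarity genes, 10 rose and 1 fell (median 1.21), where 9.22% of all genes rose, and of 19 adherens junction and desmosome genes, 7 rose and 1 fell (median 0.79). Magi3, a junctional scaffold, was at 28.9, 37.2, 17.0 and 7.88 CPM in WT and at 131, 45.4, 249.9 and 224 CPM in the libraries labelled AhR-/-, a log2 fold change of 2.84 (SE 0.75, edgeR adjusted p = 0.0282). Prkci, the atypical protein kinase C of the polarity complex, was at 20.5, 32.9, 7.55 and 7.45 CPM in WT and at 92.1, 32.9, 132 and 109.8 CPM in the libraries labelled AhR-/-, a log2 fold change of 2.44 (SE 0.61, edgeR adjusted p = 0.0268). In both genes replicate 2 labelled AhR-/- was the lowest of its group, and for Prkci it lay just under the highest WT library. Cldn18, the claudin of the alveolar barrier, was at 252, 353, 131 and 78.5 CPM in WT and at 711, 364, 1079 and 1019 CPM in the libraries labelled AhR-/-, a log2 fold change of 1.96 (SE 0.62, edgeR adjusted p = 0.0414). Afdn, an adaptor that joins nectins to actin, was at 21.1, 21.3, 13.2 and 13.8 CPM in WT and at 63.3, 30.2, 60.8 and 52.5 CPM in the libraries labelled AhR-/-, a log2 fold change of 1.58 (SE 0.32, edgeR adjusted p = 0.0261). The exception was Cldn1, which fell by 4.01 on the log2 scale (SE 1.07, edgeR adjusted p = 0.0289), from 256, 166, 433 and 319 CPM in WT to 40.2, 24.9, 2.18 and 3.71 CPM. Its value was -3.16 without the libraries with Y-linked reads and -0.63 with the leukocyte covariate. Without the libraries with Y-linked reads the tight junction median was 1.15, and 6 of the 11 DEGs of the list kept an unadjusted p under 0.05. With the leukocyte covariate it was 0.43 and 0 did. For the adherens junction list the median was 0.69 without the libraries with Y-linked reads (6 of 8 DEGs kept) and 0.28 with the leukocyte covariate (1 kept).

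Signalling pathways that pattern the epithelium showed members moving both ways. In the TGF-beta and BMP list, 13 of 39 rose and 2 fell (median 0.79), against 9.22% and 12.9% of all genes. Among its BMP genes, which moved both ways, the ligand Bmp4 was at 9.26, 10.7, 8.36 and 4.39 CPM in WT and at 21.1, 17.0, 36.0 and 31.8 CPM in the libraries labelled AhR-/-, a log2 fold change of 1.70 (SE 0.42, edgeR adjusted p = 0.0267). The type 1 receptor Bmpr1a was at 12.6, 19.8, 7.44 and 6.91 CPM in WT and at 55.6, 27.7, 102 and 86.0 CPM in the libraries labelled AhR-/-, a log2 fold change of 2.55 (SE 0.58, edgeR adjusted p = 0.0261). The signal transducer Smad9 was at 0.538, 1.36, 0.714 and 1.07 CPM in WT and at 5.05, 1.85, 14.2 and 12.7 CPM in the libraries labelled AhR-/-, a log2 fold change of 3.23 (SE 0.65, edgeR adjusted p = 0.0261). In these 3 genes every library labelled AhR-/- was above every WT library. The 2 members that fell were Tgfb1, the TGF-beta ligand, and Acvrl1 (ALK1, a type 1 receptor for BMP ligands best known from endothelium), with log2 fold changes of -1.76 (SE 0.45, edgeR adjusted p = 0.0268) and -3.12 (SE 0.63, edgeR adjusted p = 0.0261). All of these 5 kept an unadjusted p under 0.05 without the libraries with Y-linked reads. The median of the list was 0.90 without the libraries with Y-linked reads (13 of 15 DEGs kept) and 0.32 with the leukocyte covariate (2 kept), where the unadjusted p was 0.123 for Bmp4, 0.0704 for Bmpr1a and 0.0678 for Smad9 in edgeR's test.

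Of 17 Notch pathway genes 2 were higher and 4 lower, where 9.22% of all genes rose and 12.9% fell. The receptor Notch2 was at 20.99, 22.2, 33.5 and 44.95 CPM in WT and at 10.0, 8.25, 10.2 and 7.82 CPM in the libraries labelled AhR-/-, a log2 fold change of -1.75 (SE 0.33, edgeR adjusted p = 0.0261). Rbpj, the DNA-binding partner of the cleaved receptor, and the glycosyltransferases Lfng and Mfng were lower as well, Rbpj by 1.69 on the log2 scale (edgeR adjusted p = 0.0296), while the value of Mfng went from -2.43 to 0.05 with the leukocyte covariate. Hes1, a target of Notch and other pathways, moved the other way, at 9.12, 9.99, 3.57 and 2.79 CPM in WT and at 35.5, 34.3, 52.8 and 37.8 CPM in the libraries labelled AhR-/-, a log2 fold change of 2.67 (SE 0.58, edgeR adjusted p = 0.0261). In the Hippo list 5 of 20 rose and 3 fell. The kinases Lats1 and Lats2 and the factor Tead1 rose by 1.26, 1.89 and 2.60 (edgeR adjusted p = 0.0261, 0.0261 and 0.0291), whereas Mob1a, the co-activator of these kinases, was at 176, 98.7, 239 and 275 CPM in WT and at 49.3, 49.9, 29.1 and 48.6 CPM in the libraries labelled AhR-/- and fell by 2.15 (edgeR adjusted p = 0.0261). The Hippo median of 0.87 became 0.70 without the libraries with Y-linked reads (6 of 8 DEGs kept) and 0.18 with the leukocyte covariate (0 kept). For Notch it went from -0.12 to 0.01 without the libraries with Y-linked reads (6 of 6 DEGs kept) and -0.28 with the leukocyte covariate (3 kept). Of 28 Wnt genes 7 rose, among them the receptor Fzd6 (log2 fold change 1.25, SE 0.28, edgeR adjusted p = 0.0261), and 0 fell. The Wnt median of 0.89 became 0.69 without the libraries with Y-linked reads (5 of 7 DEGs kept) and 0.15 with the leukocyte covariate (3 kept).

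Dendritic cell genes had the lowest median of the marker and pathway lists. Of 8 markers 6 fell (median -2.95), where 12.9% of all genes fell. All 8 were lower in every library labelled AhR-/- than in any WT library, which held for 15.3% of all genes. Irf8, the transcription factor of type 1 dendritic cells, was at 269, 169, 239 and 238 CPM in WT and at 23.6, 24.0, 2.55 and 2.12 CPM in the libraries labelled AhR-/-, a log2 fold change of -4.09 (SE 0.98, edgeR adjusted p = 0.0261). Flt3, the receptor that sustains dendritic cell precursors, was at 136, 78.3, 189.5 and 193 CPM in WT and at 20.7, 10.4, 1.46 and 2.12 CPM in the libraries labelled AhR-/-, a log2 fold change of -4.04 (SE 1.02, edgeR adjusted p = 0.0268). Zbtb46, a factor particular to classical dendritic cells, was at 58.7, 32.9, 62.4 and 69.2 CPM in WT and at 14.0, 7.61, 3.27 and 3.71 CPM in the libraries labelled AhR-/-, a log2 fold change of -2.90 (SE 0.73, edgeR adjusted p = 0.0268). In each of the 3 genes all 4 WT libraries exceeded all libraries labelled AhR-/-, of which replicates 3 and 4 were lowest. Outside the list, and named for the size of their change, the dendritic cell genes Ccl22 (a chemokine for CCR4+ T cells), Itgae (CD103), Wdfy4 (cross-presentation), Zfp366 (DC-SCRIPT) and Fscn1 (fascin) had log2 fold changes of -3.85, -3.93, -3.65, -3.77 and -3.77, with edgeR adjusted p-values between 0.0261 and 0.0305. The summed level of the 8 markers was 582 to 1572 CPM in WT, 39.0 to 231 CPM in the libraries labelled AhR-/- and 24.8 to 1208 CPM in the 4 libraries labelled CYP1B1-/-, and none was at 0 in all 8 libraries compared. Without the libraries with Y-linked reads the median was -2.42, and 5 of the 6 DEGs were kept. With the leukocyte covariate it was -0.22 and 1 of the 6 was kept. The genes named outside the list also moved towards 0 with the leukocyte covariate. Their log2 fold changes were then -0.0497 for Ccl22, -1.153 for Itgae, -0.642 for Wdfy4, -1.003 for Zfp366 and -0.345 for Fscn1.

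Other blood cell lists held few DEGs, and the macrophage, granulocyte and T cell medians turned on single libraries. Of 13 macrophage and monocyte markers 1 fell (median -0.11), which was Itgax, the integrin CD11c that dendritic cells also carry (log2 fold change -2.98, and 0.04 with the leukocyte covariate). T and NK cell markers gave 1 lower DEG of 13, Cd8a (median -0.46), granulocyte and mast cell markers 1 of 8, Cxcr2 (median -0.16), and B and plasma cell markers 0 of 9 (median -0.71). In none of these lists did the share that fell exceed the 12.9% of all genes. The granulocyte median ran from -1.09 without replicate 2 to 0.16 without replicate 1 labelled AhR-/-, and was 0.29 without the libraries with Y-linked reads and 0.55 with the leukocyte covariate. The B cell median was -0.41 and 0.53 in these fits. The summed level of the macrophage list was 1164 to 3491 CPM in WT and 573 to 9238 CPM in the libraries labelled AhR-/-, with replicate 2 highest. Its median was -2.02 without replicate 2 labelled AhR-/-, 0.44 without WT replicate 4, 0.48 without the libraries with Y-linked reads and -2.35 with these as the only ones of their label. For T and NK cell markers the same order of settings, with WT replicate 2 in place of 4, gave -0.93, 0.25, 0.03 and -2.23. Genes of MHC class II presentation fell in 6 of 14 members and rose in 1, Rfxap, with a median of -2.12, where 12.9% of all genes fell and 9.22% rose. Ciita, the master activator of MHC class II, was at 150.3, 74.9, 275 and 203 CPM in WT and at 31.1, 32.2, 4.37 and 4.77 CPM in the libraries labelled AhR-/-, a log2 fold change of -3.25 (SE 0.81, edgeR adjusted p = 0.0268). Since alveolar type 2 cells make MHC class II as well as dendritic cells, the cell of origin cannot be told apart here. The MHC class II median was -1.37 without the libraries with Y-linked reads (3 of 7 DEGs kept) and -0.03 with the leukocyte covariate (2 kept).

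Genes of DNA replication and mitosis fell almost without exception. Of 36 members 34 were lower and 0 higher (median -2.23), against 12.9% lower among all genes, and 34 did not overlap between the groups. Mcm5, Mcm6 and Mcm7 encode subunits of the replicative helicase. Mcm5 was at 41.4, 22.2, 59.8 and 52.0 CPM in WT and at 6.16, 11.9, 4.37 and 3.18 CPM in the libraries labelled AhR-/-, a log2 fold change of -2.74 (SE 0.64, edgeR adjusted p = 0.0261). Mcm6 was at 86.6, 52.7, 113 and 126 CPM in WT and at 29.6, 31.1, 8.73 and 9.81 CPM in the libraries labelled AhR-/-, a log2 fold change of -2.24 (SE 0.56, edgeR adjusted p = 0.0268). For both, WT replicate 2 was the lowest WT library and still above all 4 libraries labelled AhR-/-. Cdc45, which activates the helicase, Cdc6, which loads it, and Top2a, the topoisomerase of mitotic chromosomes, fell by 2.56, 2.22 and 2.94 on the log2 scale (edgeR adjusted p = 0.0261, 0.0261 and 0.0289). Iqgap3, a scaffold of dividing cells, and Kif18b, a mitotic kinesin, were among the 12 lower DEGs of lowest p, with log2 fold changes of -2.84 (SE 0.49, edgeR adjusted p = 0.0261) and -3.14 (SE 0.55, edgeR adjusted p = 0.0261). The mean log2 CPM of the list was 4.42, 3.78, 4.95 and 4.83 in WT and 2.95, 2.89, 0.91 and 1.48 in the libraries labelled AhR-/-. Of the 34 DEGs 28 kept an unadjusted p under 0.05 without the libraries with Y-linked reads (median -1.70), and 2 with the leukocyte covariate (median -0.39). Which cells, epithelial or blood cells, were dividing was not tested.

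**Figure D3:**
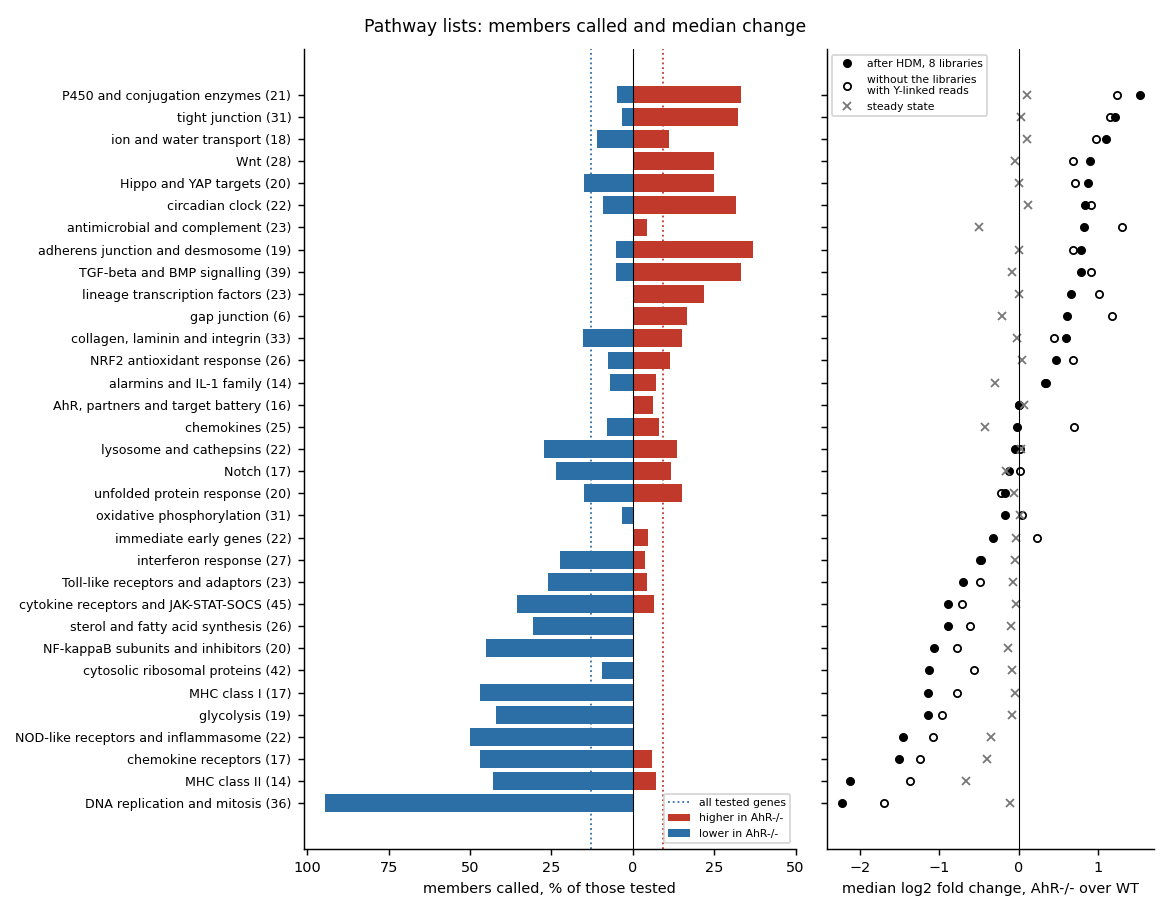
Pathway lists, ordered by their median, with the number of members tested in brackets. Left, percent of tested members that were lower (blue) or higher (red) DEGs, with dotted lines at 12.9% and 9.22% for all genes tested. Right, median log2 fold change after HDM (filled), after HDM without the 2 libraries with Y-linked reads (open) and at steady state (cross), where medians stay within -0.67 and 0.12.

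Sensors and signal relays of innate immunity were found among the lower DEGs, which made up 12.9% of all genes. Of 23 Toll-like receptor and adaptor genes 6 fell and 1 rose (median -0.70), of 22 NOD-like receptor and inflammasome genes 11 fell and 0 rose (median -1.45), of 20 NF-kappaB subunits and inhibitors 9 fell and 0 rose (median -1.07), and of 17 chemokine receptors 8 fell and 1 rose (median -1.51). Among the sensors, Nod2 was at 3.23, 2.72, 2.55 and 3.80 CPM in WT and at 1.04, 0.895, 0.728 and 0.663 CPM in the libraries labelled AhR-/-, a log2 fold change of -1.83 (SE 0.41, edgeR adjusted p = 0.0261), and Nlrp1b at 9.80, 8.40, 18.7 and 19.8 CPM in WT and at 2.97, 3.07, 1.09 and 0.795 CPM in the libraries labelled AhR-/-, a log2 fold change of -2.70 (SE 0.60, edgeR adjusted p = 0.0261). Nfkbib, the inhibitor IkappaB-beta, was at 28.7, 19.1, 28.4 and 24.9 CPM in WT and at 12.5, 12.1, 8.003 and 11.9 CPM in the libraries labelled AhR-/-, a log2 fold change of -1.17 (SE 0.25, edgeR adjusted p = 0.0261). These 3 genes parted the groups without overlap. In the cytokine receptor and JAK-STAT list, 16 of 45 fell and 3 rose (median -0.89). Stat6, the transducer of IL-4 and IL-13, was at 69.6, 62.9, 89.5 and 80.9 CPM in WT and at 31.5, 45.1, 26.9 and 34.9 CPM in the libraries labelled AhR-/-, a log2 fold change of -1.13 (SE 0.28, edgeR adjusted p = 0.0267). Crlf2, the receptor chain for TSLP, and Il1rl1, the IL-33 receptor ST2, had log2 fold changes of -2.83 (SE 0.66, edgeR adjusted p = 0.0261) and -2.73 (SE 0.66, edgeR adjusted p = 0.0261). Il1rl1 was at 4.70, 7.72, 21.7 and 22.3 CPM in WT and at 2.42, 2.43, 1.82 and 1.59 CPM in the libraries labelled AhR-/-, with WT replicates 3 and 4 above the other WT libraries. The receptors of both alarmins were thus lower. The ligand of ST2, Il33, was at 208, 179, 104 and 54.4 CPM in WT and at 407, 265, 26.9 and 38.5 CPM in the libraries labelled AhR-/- (log2 fold change 0.44, SE 0.78, edgeR adjusted p = 0.729), with replicates 3 and 4 labelled AhR-/- below and replicates 1 and 2 above all of WT, and Tslp had too few counts to be tested. The Toll-like receptor median was -0.49 without the libraries with Y-linked reads (6 of 7 DEGs kept) and -0.10 with the leukocyte covariate (0 kept). For NOD-like receptors it was -1.08 without the libraries with Y-linked reads (10 of 11 DEGs kept) and -0.23 with the leukocyte covariate (2 kept), and for NF-kappaB genes -0.77 without the libraries with Y-linked reads (7 of 9 DEGs kept) and -0.23 with the leukocyte covariate (1 kept). Chemokine receptors had a median of -1.24 without the libraries with Y-linked reads (8 of 9 DEGs kept) and -0.34 with the leukocyte covariate (0 kept), and the JAK-STAT list one of -0.71 without the libraries with Y-linked reads (12 of 19 DEGs kept) and -0.18 with the leukocyte covariate (1 kept). With the covariate, few DEGs of these lists were kept.

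Chemokines were split, and most interferon and MHC class I genes did not pass, those that did being lower with the exception of Ifit3. Of 25 chemokines 2 rose and 2 fell, no more than the 9.22% and 12.9% of all genes, and the median of -0.02 was 0.69 without the libraries with Y-linked reads (4 of 4 DEGs kept) and 0.75 with the leukocyte covariate (1 kept). Cxcl13, the B cell chemokine, was at 0.170, 0.227, 0.612 and 0.375 CPM in WT and at 3.91, 2.24, 2.18 and 7.56 CPM in the libraries labelled AhR-/-, a log2 fold change of 3.54 (SE 0.63, edgeR adjusted p = 0.0261). Cxcl9, which attracts CXCR3+ T cells, was at 11.9, 4.54, 5.61 and 10.8 CPM in WT and at 0.247, 1.66, 0 and 1.19 CPM in the libraries labelled AhR-/-, a log2 fold change of -3.30 (SE 0.91, edgeR adjusted p = 0.0304). Both genes parted the groups, in opposite directions, and their low levels rest on few counts in the shallow libraries. Of 27 interferon response genes 6 fell and 1 rose (median -0.50), where 12.9% of all genes fell. Oas3, an antiviral RNA sensor, was at 4.82, 5.45, 9.18 and 4.98 CPM in WT and at 1.41, 1.73, 2.91 and 2.25 CPM in the libraries labelled AhR-/-, a log2 fold change of -1.65 (SE 0.35, edgeR adjusted p = 0.0261). Ifit3 was the member that rose, at 13.4, 19.8, 16.8 and 6.32 CPM in WT and at 69.4, 13.4, 98.6 and 80.5 CPM in the libraries labelled AhR-/-, a log2 fold change of 2.22 (SE 0.62, edgeR adjusted p = 0.031), where replicate 2 labelled AhR-/- lay within WT. Of 17 MHC class I genes 8 fell and 0 rose (median -1.14). Tap1, a subunit of the peptide transporter, was at 138, 73.5, 131 and 132 CPM in WT and at 31.2, 46.0, 3.27 and 13.3 CPM in the libraries labelled AhR-/-, a log2 fold change of -2.32 (SE 0.63, edgeR adjusted p = 0.0296). Nlrc5, the activator of MHC class I transcription, was at 31.3, 21.8, 33.6 and 32.8 CPM in WT and at 8.19, 10.4, 2.55 and 3.45 CPM in the libraries labelled AhR-/-, a log2 fold change of -2.21 (SE 0.49, edgeR adjusted p = 0.0261). All 4 WT libraries lay above the libraries labelled AhR-/- in both, and the MHC class I median was -0.78 without the libraries with Y-linked reads (5 of 8 DEGs kept) and -0.32 with the leukocyte covariate (1 kept). The interferon median was -0.47 without the libraries with Y-linked reads (5 of 7 DEGs kept) and 0.01 with the leukocyte covariate (1 kept).

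Of the metabolic lists, glycolysis and sterol synthesis held more lower DEGs than the 12.9% of all genes, and ribosomal proteins and oxidative phosphorylation fewer. In glycolysis 8 of 19 fell and 0 rose (median -1.14). Slc2a1, the glucose transporter GLUT1, was at 26.2, 19.5, 40.3 and 27.8 CPM in WT and at 7.40, 9.14, 5.82 and 12.3 CPM in the libraries labelled AhR-/-, a log2 fold change of -1.70 (SE 0.35, edgeR adjusted p = 0.0261). Slc16a3, the lactate exporter MCT4, was at 7.51, 5.45, 11.3 and 11.4 CPM in WT and at 0.643, 2.17, 0.364 and 0.928 CPM in the libraries labelled AhR-/-, a log2 fold change of -2.995 (SE 0.58, edgeR adjusted p = 0.0261). In sterol and fatty acid synthesis 8 of 26 fell and 0 rose (median -0.89). Among them, Cyp51, a demethylase of sterol synthesis, was at 41.8, 25.9, 97.0 and 85.9 CPM in WT and at 19.5, 24.6, 10.6 and 12.7 CPM in the libraries labelled AhR-/-, a log2 fold change of -1.88 (SE 0.50, edgeR adjusted p = 0.029). The glycolysis median was -0.97 without the libraries with Y-linked reads (7 of 8 DEGs kept) and -0.40 with the leukocyte covariate (2 kept), and the sterol median was -0.62 without the libraries with Y-linked reads (5 of 8 DEGs kept) and -0.34 with the leukocyte covariate (1 kept). Oxidative phosphorylation gave 1 DEG of 31 (median -0.17) and ribosomal proteins 4 of 42, all lower, at a median of -1.13 that became -0.56 without the libraries with Y-linked reads (0 of 4 DEGs kept) and 0.01 with the leukocyte covariate (0 kept).

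Transcripts of the circadian clock were among the DEGs after HDM, and several of them did not overlap between the groups in the libraries of steady state either. The clock is a feedback loop in which CLOCK and ARNTL (BMAL1) bind E-boxes (CACGTG) and raise their own repressors, the PER and CRY proteins and the nuclear receptors NR1D1 and NR1D2 (REV-ERB), so that these transcripts peak at different times of day. The hour at which lungs were taken is not given in the sources used here. After HDM, 7 of 22 clock genes rose and 2 fell, where 9.22% of all genes rose and 12.9% fell. Their median of 0.84 was 0.91 without the libraries with Y-linked reads (9 of 9 DEGs kept) and 0.27 with the leukocyte covariate (4 kept). At steady state 0 genes of the whole table passed in edgeR's test (263 at an unadjusted p under 0.05, of 15547 tested), so these values are given as sizes with their errors. Nr1d1 was at 3.82, 11.6, 1.94 and 1.55 CPM in WT and at 16.4, 28.2, 22.2 and 27.8 CPM in the libraries labelled AhR-/- after HDM, a log2 fold change of 2.44 (SE 0.73, edgeR adjusted p = 0.0364). At steady state Nr1d1 was at 15.5, 14.4, 33.6 and 49.7 CPM in the 4 WT and at 106, 106 and 178 CPM in the 3 libraries labelled AhR-/-, a log2 fold change of 2.193 (SE 0.45). Both states thus placed all libraries labelled AhR-/- above WT. Nr1d2 was at 16.7, 29.7, 7.44 and 11.7 CPM in WT and at 72.9, 30.1, 53.5 and 48.0 CPM in the libraries labelled AhR-/- after HDM, a log2 fold change of 1.66 (SE 0.46, edgeR adjusted p = 0.0313), and at 1.57 (SE 0.32) on that scale at steady state. Cry1 went the opposite way, at 14.2, 12.0, 13.8 and 19.0 CPM in WT and at 5.10, 8.05, 2.91 and 5.30 CPM in the libraries labelled AhR-/- after HDM, a log2 fold change of -1.42 (SE 0.31, edgeR adjusted p = 0.0261). At steady state Cry1 was at 48.1, 39.1, 33.6 and 35.3 CPM in WT and at 12.9, 13.3 and 15.0 CPM in the libraries labelled AhR-/-, a log2 fold change of -1.50 (SE 0.29). Cry1 was thus lower in all libraries labelled AhR-/- in both states. Per3 and Bhlhe41 (DEC2, a further E-box repressor) were higher without overlap in both states, with log2 fold changes of 2.33 (SE 0.60, edgeR adjusted p = 0.0277) and 1.98 (SE 0.44, edgeR adjusted p = 0.0261) after HDM and of 0.74 (SE 0.27) and 1.42 (SE 0.26) at steady state.

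**Figure D4:**
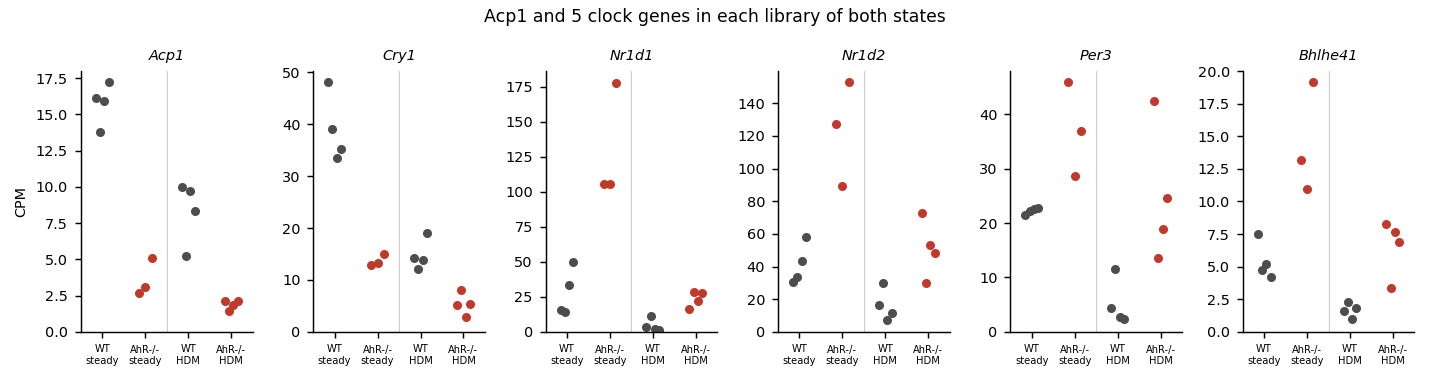
CPM of Acp1 and 5 clock genes in each WT (grey) and labelled AhR-/- (red) library at steady state and after HDM. In each gene and each state all libraries labelled AhR-/- lie on one side of WT, below for Acp1 and Cry1 and above for the other 4.

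The remaining clock genes were less even. Per2, another E-box target, rose after HDM by a log2 value of 1.75 (edgeR adjusted p = 0.0452) and differed by 1.25 (SE 0.43) at steady state. Nfil3, a repressor in antiphase to the PAR-bZIP factors, fell by 1.83 (edgeR adjusted p = 0.0352) and differed by -1.77 (SE 0.51) at steady state. Arntl was at 55.4, 46.2, 52.0 and 46.4 CPM in WT and at 18.3, 25.4 and 17.4 CPM in the libraries labelled AhR-/- at steady state, a log2 fold change of -1.29 (SE 0.22), but after HDM its log2 fold change was -0.26 (SE 0.28, edgeR adjusted p = 0.523) and the groups overlapped. Clock rose after HDM by a log2 value of 1.13 (edgeR adjusted p = 0.03) and differed by -0.18 (SE 0.24) at steady state. The difference between the states was not tested. The libraries of each state were deposited in separate count tables, so that state and table cannot be told apart. Nr1d1, Per2 and Arntl were chosen after their values were seen.

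**Figure D5:**
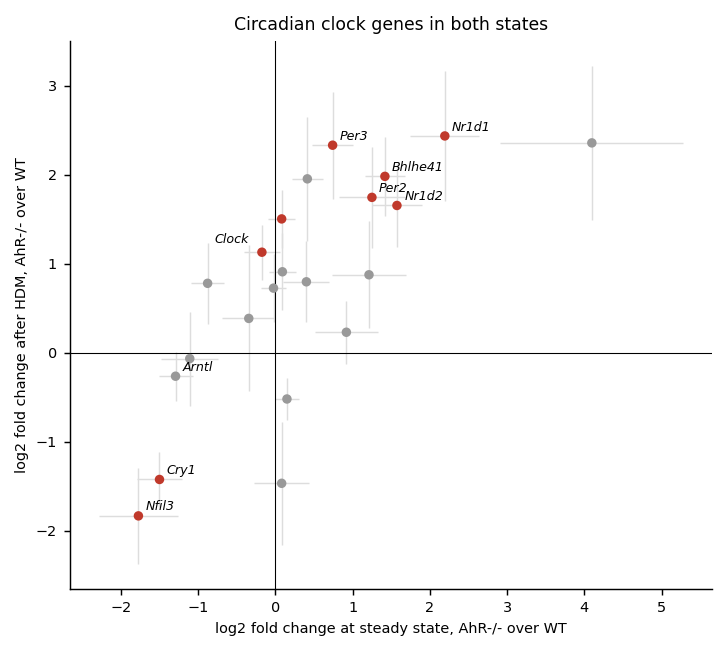
Log2 fold change of the 22 clock genes, with those described in the text labelled, labelled AhR-/- over WT, at steady state (x axis) and after HDM (y axis), with bars of 1 standard error. DEGs after HDM are red. Nr1d1, Bhlhe41, Nr1d2, Per2 and Per3 lie high in both states, Cry1 and Nfil3 low in both.

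The promoters of Cry1 and Bhlhe41, chosen after their values were seen, are shown because they hold the E-box of the clock, here in capitals, in the same RefSeq windows (GRCm38.p6). The E-box reads alike on both strands.
Cry1, chr10:85185005-85185304, minus strand: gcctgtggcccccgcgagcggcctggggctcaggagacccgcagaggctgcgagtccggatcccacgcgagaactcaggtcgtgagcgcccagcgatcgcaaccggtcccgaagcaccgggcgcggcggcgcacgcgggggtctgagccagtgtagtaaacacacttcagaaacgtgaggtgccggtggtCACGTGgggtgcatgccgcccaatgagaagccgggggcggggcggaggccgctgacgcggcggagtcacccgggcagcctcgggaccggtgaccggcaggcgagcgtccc
Bhlhe41, chr6:145865371-145865670, minus strand: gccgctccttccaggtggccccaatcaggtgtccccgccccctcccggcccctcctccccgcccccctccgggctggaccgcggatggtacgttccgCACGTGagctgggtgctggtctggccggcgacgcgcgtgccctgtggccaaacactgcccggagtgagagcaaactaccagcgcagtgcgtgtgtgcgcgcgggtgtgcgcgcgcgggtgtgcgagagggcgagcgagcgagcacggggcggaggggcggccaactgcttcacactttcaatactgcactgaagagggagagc
The E-box was present in 5 of the 17 clock gene windows matched (29.4%) and in 9.59% of all 11060 windows. It was not in the windows of Nr1d1, Nr1d2 and Per3.

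Genes that separated the groups in both states were sought last. Of the 2418 DEGs without overlap after HDM, 19 also had an unadjusted p under 0.05, the same direction and no overlap at steady state. Of the 2980 DEGs tested at steady state, 52 had such a p in the same and 10 in the opposite direction, together 2.08%, against 1.69% of all genes tested there. Acp1 had the lowest unadjusted p of these at steady state (edgeR adjusted p = 0.0779). At steady state it was at 16.1, 13.8, 15.9 and 17.2 CPM in WT and at 2.67, 3.09 and 5.12 CPM in the libraries labelled AhR-/-, a log2 fold change of -2.12 (SE 0.27). Its value was thus nearly that after HDM (-2.15), and -2.21 with the leukocyte covariate. Acp1 (chr12:30893326-30911589, GRCm38, minus strand) lies 4.59 Mb from Ahr on chromosome 12. Rab4a, a small GTPase of endosome recycling chosen after its values were seen, was higher in both states, at 1.16, 0.681, 0.612 and 0.696 CPM in WT and at 6.36, 4.41, 3.27 and 6.50 CPM in the libraries labelled AhR-/- after HDM (log2 fold change 2.66, SE 0.49, edgeR adjusted p = 0.0261) and at 3.53, 2.72, 3.64 and 4.64 CPM in WT and 13.5, 8.94 and 8.39 CPM in the libraries labelled AhR-/- at steady state (log2 fold change 1.49, SE 0.27). The 3 libraries labelled CYP1B1-/- of steady state, in which Cyp1b1 goes against the label, lay above WT as well, at 27.9, 16.01 and 16.7 CPM. After HDM, the 4 libraries labelled CYP1B1-/- were at 2.81, 5.47, 0.910 and 3.56 CPM. Slc16a3, of the metabolic genes above, was lower in every library labelled AhR-/- in both states, with a log2 fold change of -1.05 (SE 0.39) at steady state. Over all DEGs, the direction was shared with steady state by 925 of 1303 higher (71.0%) and 1037 of 1677 lower (61.8%), where about equal parts of all genes were higher (49.97%) and lower (50.03%). Leukocyte markers had a list median of -2.04 at steady state, but their summed level was 496, 224, 180.3 and 133 CPM in WT and 201, 158 and 156 CPM in the libraries labelled AhR-/-, so that the groups overlapped with WT replicate 1 apart from the rest. All of these sums were below those of WT after HDM. By their medians, the replication list, at -0.11, and the dendritic cell list, at -0.74, were nearer to 0 than after HDM.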

How the data were processed

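RNA of sorted ECs was copied from a poly-dT primer with template switching, amplified, tagmented and sequenced. Per the methods, the authors removed adapters with bbduk, used GSNAP for alignment to mm10, and summed reads over genes of Ensembl release 99 with featureCounts 2.0.0. The submitters' processing notes name bcl2fastq 2.19.1. The deposited values are unnormalized counts per gene, in one table for each state. The setting for strand is not given in the sources used here, so overlapping genes may share counts, and amplification copies were not marked by molecular identifiers.

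Protein-coding genes were taken by the names and biotypes of the Ensembl identifiers. Low genes were removed by filterByExpr at a minimum count of 10 and a minimum total of 15, and the others were normalized by TMM and tested in R 4.3.3 with edgeR 4.0.16, by the robust quasi-likelihood test over the 12 HDM libraries, with Benjamini-Hochberg adjustment at 0.05. Fold changes are given as log2, labelled AhR-/- over WT, with standard errors, and levels as CPM on TMM-scaled library sizes. Libraries were grouped by their labels, which do not say that each came from a separate mouse, so that p-values measure the spread between these libraries. Steady-state libraries were tested separately in the same way. Alternatives used limma 3.58.1 (voom) and DESeq2 1.42.0, other filters and scalings, covariates, and fits without single libraries. The test was run on simulated counts with known changes first. Promoter windows come from RefSeq. Gene lists, members and tests were chosen with earlier results of these data known. Named genes were all tested AhR battery members, the 12 DEGs of lowest p per direction without overlap, the 12 of largest change among those of at least 20 CPM, up to 4 DEGs of lowest p per direction and the 3 of highest level per list, and the sorting markers and alarmins. Other named genes are marked in the text. Single values of some list members are not reported here.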

Additional observations from a re-analysis of the deposited data

Results flagged for a closer look

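Among the 260 sets of 4 libraries examined for a value far from the others, by the gap to the nearest library over the range of the group (Dixon's 95% critical value), 14 held one, where chance gives about 1 in 20, or 13. WT replicate 1 had a total of 15512503 counts, against 9654825 to 10319824 in the other WT libraries. WT replicate 2 had a mean log2 CPM of 3.12 for macrophage and monocyte markers, against 4.05 to 4.18.

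For single genes, on the log2 CPM scale, WT replicate 2 lay at 2.34 for Mfng (others 3.82 to 3.99), at 4.45 for Nlrc5 (others 4.97 to 5.08), at 6.45 for Alox5ap (others 7.44 to 7.51), at 6.20 for Tap1 (others 7.04 to 7.11) and at 2.73 for Resp18 (others 1.20 to 1.27). WT replicate 4 lay at 3.02 for Ahr (others 3.60 to 3.67). Of the libraries labelled AhR-/-, replicate 2 lay at 3.68 for Cdc14b (others 4.13 to 4.19) and at 3.88 for Clock (others 4.92 to 5.07). Replicate 3 lay at -1.24 for Lfng (others -0.27 to -0.23), at 4.87 for Mob1a (others 5.61 to 5.64), at 3.01 for Nfkbib (others 3.58 to 3.65) and at -4.06 for Ngfr (others -0.92 to -0.39).

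Y-linked transcripts, which enter no comparison, summed to 137.9 CPM in replicate 3 and 143.3 CPM in replicate 4 labelled AhR-/-, against at most 0.227 CPM in the other 6 libraries compared.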

How the results depend on the processing

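The number of DEGs after HDM was 3129 and moved to 6669 by voom (2987 higher, 3682 lower), to 1802 with no filter, and to 0 without the libraries with Y-linked reads, with the leukocyte covariate and, chosen after seeing the data, with the dendritic cell covariate (947 at an unadjusted p under 0.05). It ranged from 0 to 4137 with one library left out. It was within 1.5 times of 3129 by the likelihood ratio test (4120), DESeq2 (4592), RLE scaling (3229), a minimum of 10 counts in every library (2468), the 8 libraries alone (3802), without the dominant predicted genes (2921), for DEGs that also changed by 1 or more on the log2 scale (2551), and, chosen after seeing the data, without the 2 libraries labelled AhR-/- that lack Y-linked reads (3974). With the replicate block 1 gene passed (5370 at an unadjusted p under 0.05), and deviations of same-numbered libraries correlated at 0.67, -0.10, -0.17 and 0.12, so that the numbers were not taken as pairs. At steady state 0 genes passed, with 11 by the likelihood ratio test, 0 with the replicate block and 0 to 1 with one library left out. The cause of these shifts was not tested.

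Of the 100 DEGs named in the text, 96 kept their direction in every alternative, all of which share libraries with the fit that picked them. The values that changed direction were, with the leukocyte covariate, 0.59 for Alox5ap, 0.0503 for Epcam, 0.0353 for Itgax, 0.0495 for Mfng and 0.32 for Ptprc, with the dendritic cell covariate 0.68 for Alox5ap, 0.33 for Ccl22, 0.13 for Fscn1, 0.18 for Itgax, 0.24 for Mfng and 0.33 for Ptprc, by voom 0.0281 for Cyp1b1 and -1.32 for Il33, and without the 2 libraries labelled AhR-/- that lack Y-linked reads 0.0290 for Arntl and -2.10 for Il33. Il33 was also at -0.16 with the replicate block and between -0.31 (without replicate 1 labelled AhR-/-) and 0.80 with one library left out. Ptprc is one of the markers averaged into the leukocyte covariate, so that its value in that fit is no separate result. Cd209e and S100a4, picked for the size of their change but not described above, had log2 fold changes of -3.80 and -3.62. With the dendritic cell covariate these were 0.57 and 0.27, and with the leukocyte covariate 0.40 and -0.16. The depth of the shallowest library, where 3 counts stand for 1.09 CPM, limits statements on genes at or under that level.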

Other observations

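Matrix and ion transport lists were called at shares near those of all genes, of which 9.22% rose and 12.9% fell, and single members are given as values. Of 33 collagen, laminin and integrin genes 5 rose and 5 fell, and the median of 0.59 was 0.45 without the libraries with Y-linked reads (6 of 10 DEGs kept) and -0.28 with the leukocyte covariate (2 kept). Itga5, the alpha chain of the fibronectin receptor, was at 12.4, 11.3, 23.1 and 22.3 CPM in WT and at 2.33, 5.75, 1.09 and 1.33 CPM in the libraries labelled AhR-/-, a log2 fold change of -2.61 (SE 0.58, edgeR adjusted p = 0.0261). Its beta chain Itgb1, which pairs with many alpha chains, was at 147, 159.6, 115 and 144 CPM in WT and at 263, 168, 375 and 343 CPM in the libraries labelled AhR-/-, a log2 fold change of 1.02 (SE 0.30, edgeR adjusted p = 0.0343). The groups did not overlap in either gene, and the chains moved in opposite directions. Of 18 ion and water transport genes 2 rose and 2 fell, and the median of 1.09 was 0.97 without the libraries with Y-linked reads (3 of 4 DEGs kept) and 0.12 with the leukocyte covariate (2 kept). The water channels Aqp4 and Aqp3 likewise parted, Aqp4 at 2.18, 4.77, 1.33 and 2.20 CPM in WT and at 16.3, 5.62, 24.4 and 17.2 CPM in the libraries labelled AhR-/- (log2 fold change 2.66, SE 0.54, edgeR adjusted p = 0.0261) and Aqp3 at 9.89, 11.8, 69.8 and 41.7 CPM in WT and at 2.94, 4.03, 0.364 and 1.06 CPM in the libraries labelled AhR-/- (log2 fold change -3.80, SE 0.78, edgeR adjusted p = 0.0261). Kcnn4, a calcium-activated potassium channel, was at 17.7, 12.0, 23.04 and 25.3 CPM in WT and at 2.65, 4.16, 1.46 and 0.795 CPM in the libraries labelled AhR-/-, a log2 fold change of -3.003 (SE 0.71, edgeR adjusted p = 0.0261). Without the libraries with Y-linked reads the log2 fold changes of Itga5, Itgb1, Aqp4, Aqp3 and Kcnn4 were -2.14, 0.63, 2.188, -3.27 and -2.55, and Itgb1 was the one of the 5 whose unadjusted p then exceeded 0.05.

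Agr2, a protein disulfide isomerase of mucous cells, was the goblet marker of 10 that rose, at 1.22, 6.36, 0.816 and 0.536 CPM in WT and at 21.04, 16.9, 15.3 and 11.9 CPM in the libraries labelled AhR-/-, a log2 fold change of 3.15 (SE 0.98, edgeR adjusted p = 0.0405). Cd59a, an inhibitor of the complement attack complex, was the member of 23 antimicrobial and complement genes that rose, at 1.98, 4.31, 1.43 and 0.911 CPM in WT and at 9.60, 7.67, 22.2 and 25.7 CPM in the libraries labelled AhR-/-, a log2 fold change of 3.02 (SE 0.66, edgeR adjusted p = 0.0261). Every library labelled AhR-/- exceeded every WT library in both genes. The shares of these lists that rose were near and below the 9.22% of all genes that rose. Both genes were kept without the libraries with Y-linked reads, and neither was kept with the leukocyte covariate. In the unfolded protein response list 3 of 20 rose and 3 fell, near the shares of all genes, and its median of -0.17 was -0.23 without the libraries with Y-linked reads (3 of 6 DEGs kept) and 0.17 with the leukocyte covariate (1 kept). Of 22 lysosomal genes 3 rose and 6 fell, where 9.22% of all genes rose and 12.9% fell. Their median of -0.04 was 0.01 without the libraries with Y-linked reads (6 of 9 DEGs kept) and 0.28 with the leukocyte covariate (1 kept). Of markers of endothelial, mesenchymal, mesothelial and red blood cells, 0 of 8, 10, 4 and 4 tested passed, at medians of 0.80, 1.04, 0.74 and 1.47. In the same order, these were 1.17, 0.78, 1.05 and -0.56 without the libraries with Y-linked reads, where the red blood cell median changed sign, and 0.39, -0.28, 0.79 and 1.34 with the leukocyte covariate, where the mesenchymal one did. The endothelial median was 0.15 without replicate 2 labelled AhR-/-. In a window of 10 Mb on each side of Ahr, chosen after the value of Acp1 was seen, 9 of 55 tested genes were higher and 8 lower, together 30.9%, against 22.1% over all genes.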
